A study of Ovis aries with 12 samples.

Results

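Whole-embryo RNA of Hulunbuir short-tail sheep, a Mongolian breed of Ovis aries, was compared between day 25 and day 16 of development, with 3 libraries at each age. The comparison covered the 13913 of 26247 listed genes that reached 1 FPKM (fragments per kilobase of gene, scaled to library size) in at least 3 of these 6 libraries. The series holds 12 libraries in all, and the other 6 came from Ujumqin sheep of the same ages, the control breed, which enter here only in a test of whether the change with age differed between breeds. Per the series' design text, embryos were taken apart with enzymes into single cells, and RNA was then sequenced in bulk. The labels name no treatment and no genetic change in any group. They do not say whether a library is 1 embryo or a pool, or which membranes stayed with the embryo, and p-values therefore speak only of how far these libraries scatter, some of which may be technical.

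In a ruminant conceptus the younger age lies close to gastrulation and the first somites, when the primitive streak lays down mesoderm, the yolk sac makes the first blood and the trophoblast is elongating outside the embryo. By the older age the organs are forming: the neural tube gives rise to neurons, the somites to muscle and cartilage, and the hepatic bud becomes the liver, which also becomes the site of blood formation. RNA from a whole embryo mixes all of these cells, so a gene measured here can change because cells of a type became more or less numerous or because each held more or less of its RNA, and these cannot be told apart.

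Total gene counts lay between 43131962 and 51241161 per library at day 16 and between 32625184 and 39643588 at day 25. The day 25 libraries were close to each other, with Pearson r over genes between 0.988 and 0.990 on log2(FPKM + 1), whereas the day 16 libraries reached only 0.928 to 0.955. The biological coefficient of variation was 12.3% within day 25 and 40.5% within day 16. The first principal component divided the ages (72.5% of the variance), and the second (14.8%) divided day 16 replicate 2 from day 16 replicate 3. Of the day 16 libraries, replicate 2 was highest in matrix and plasma protein genes and replicate 3 in heart genes. PGR and PAEP, markers of the maternal endometrium, were at 0 in all 6 libraries, and SERPINA14, a uterine secretory protein, had a count in 1 library (0.0656 FPKM).

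In the quasi-likelihood test of edgeR (adjusted by Benjamini-Hochberg), 5675 of the 13913 genes changed between the ages (40.8% at an adjusted p under 0.05). Of these, 2765 were higher (19.9%) and 2910 lower (20.9%) at day 25. A change of at least 4-fold was found for 733 of the higher and 500 of the lower genes. The groups of 3 and 3 did not overlap in FPKM for 7791 genes (56.0%). Leaving out a day 25 library lowered the count of changed genes to 3290, 3031 and 3124 for replicates 1, 2 and 3, whereas leaving out a day 16 library gave 5719, 6550 and 6544, and 2822 genes were called whichever library was left out. These counts depend on the scale: edgeR centres the ages on each other (median log2 change -0.01 over all genes), while the FPKM values lie higher at day 25 (median 0.13 on the log2(FPKM + 1) scale), where limma called 3500 genes higher and 2013 lower. Log2 changes below are from the count fit, with the standard error (SE). FPKM values are in replicate order. Counts of called list members below are to be read beside the shares over all genes, 19.9% higher and 20.9% lower.

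**Figure D1:**
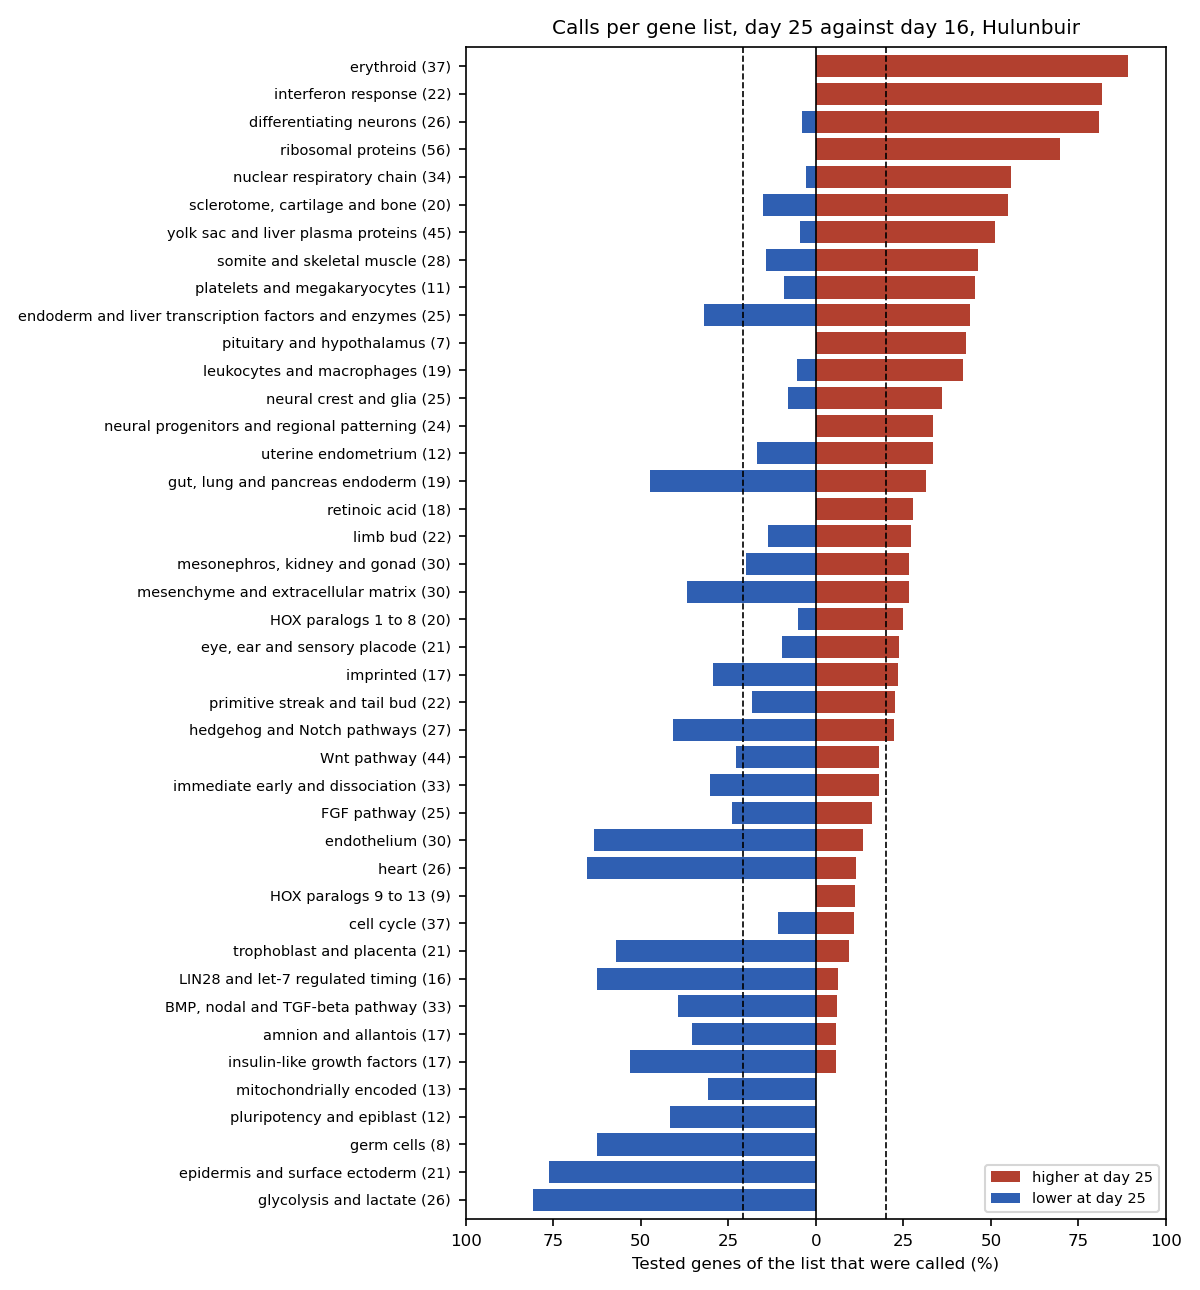
Share of tested members of each gene list that were called higher (right) or lower (left) at day 25 than at day 16 in Hulunbuir embryos, in percent, with the number tested beside each name. The dashed lines mark the share over all 13913 genes, 19.9% higher and 20.9% lower. Erythroid, interferon and neuron lists extend farthest to the right and glycolysis, epidermis and heart lists farthest to the left.

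Genes of red blood cells rose. Of 37 tested erythroid genes, 33 were higher at day 25 and 0 lower, with a median log2 change of 3.03, and 30 of the 33 were called whichever library was left out. HBZ, the alpha-like globin of primitive red cells (chromosome 24, 133194 to 134250 in Oar_v3.1), measured 54.8, 117 and 89.5 FPKM at day 16 and 14622, 17457 and 14928 FPKM at day 25. The ages lay more than 100-fold apart in every pair of libraries, and the log2 change was 7.34 ± 0.42 (SE), adjusted p = 1.4e-04. At day 25 HBZ was the most abundant mRNA of the table. Its chaperone AHSP went from 14.2 ± 8.03 to 951 ± 61.2 FPKM (mean ± SD, n = 3 each).

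The rise included transcription factors, heme enzymes and membrane proteins. GATA1, the master factor of the lineage, measured 1.504, 3.91 and 3.17 FPKM at day 16 and 107, 111 and 98.9 FPKM at day 25, with a log2 change of 5.06 ± 0.39 (SE), adjusted p = 2.7e-04. KLF1, which switches on globin and membrane genes, rose by 5.40 ± 0.70, and NFE2 by 4.45 ± 0.51, or 5.20 without day 16 replicate 2. All day 25 libraries lay far above all day 16 libraries for these factors. ALAS2, the erythroid form of the first enzyme of heme synthesis, measured 2.96, 10.6 and 11.4 FPKM at day 16 and 363, 373 and 369 FPKM at day 25. FECH, which inserts the iron at the last step, rose by 2.75 ± 0.16. EPB42 (erythrocyte membrane protein band 4.2) measured 3.67, 3.59 and 4.29 FPKM at day 16 and 46.6, 42.5 and 49.9 FPKM at day 25, a log2 change of 3.46 ± 0.13 (SE), adjusted p = 5.0e-05. BLVRB, a heme-related reductase of red cells, had values of 13.1, 14.1 and 12.9 FPKM at day 16 and 359, 371 and 376 at day 25 and an adjusted p of 5.0e-05, among the 5 smallest of all genes.

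BCL11A, the repressor of embryonic globins in other mammals, was also higher, at 0.176, 0.291 and 0.621 FPKM at day 16 and 16.4, 16.8 and 17.1 FPKM at day 25 (log2 change 5.43 ± 0.40 (SE), adjusted p = 2.3e-04). The transferrin receptor TFRC, by contrast, stood at 18.2, 12.5 and 22.5 FPKM at day 16 and 15.6, 14.1 and 14.4 FPKM at day 25. Its groups overlapped, and the change of -0.37 ± 0.17 did not pass the test (adjusted p = 0.109). Without day 16 replicate 2, the lowest of its age, TFRC was called lower, with a log2 change of -0.51 (adjusted p = 0.016).

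Of 45 tested plasma protein genes, which yolk sac and liver both make, 23 were higher and 2 lower (median log2 change 1.49), and 21 of the 23 were called whichever library was left out. HPX, the heme scavenger hemopexin, had the smallest adjusted p of all 13913 genes: it measured 0.769, 0.754 and 0.702 FPKM at day 16 and 105, 103 and 109 FPKM at day 25, a log2 change of 6.99 ± 0.19 (SE), adjusted p = 2.2e-05. The day 25 libraries exceeded the day 16 libraries by more than 100-fold in each case. ITIH3, a hyaluronan-binding inter-alpha-inhibitor chain, rose by 8.96 ± 0.31 and AMBP, the light chain of the same complex, by 7.94 ± 0.68 (or 8.66 without day 16 replicate 2). VTN (vitronectin) went from 0.401 ± 0.276 to 39.4 ± 0.748 FPKM and ALB (albumin) from 1.01 ± 0.450 to 16.9 ± 1.45 FPKM.

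Other plasma proteins were already abundant at day 16 and did not pass the test over all 6 libraries. AHSG (fetuin-A) measured 1552, 7086 and 2767 FPKM at day 16 and 9838, 10773 and 10136 FPKM at day 25. AFP (alpha-fetoprotein) measured 213, 1372 and 459.7 FPKM at day 16 and 1947, 2056 and 1999.6 FPKM at day 25. In both genes day 16 replicate 2 lay well above the other day 16 libraries, but the ages did not overlap, and the adjusted p was 0.121 for AHSG and 0.141 for AFP. Both were called higher without day 16 replicate 2, with AHSG changing by 2.23 on the log2 scale (adjusted p = 9.6e-04) against 1.23 with it, and AFP by 2.56 (adjusted p = 0.00139) against 1.34. The apolipoproteins APOA1 and APOE and the retinol carrier RBP4 overlapped between the ages, while APOB, the structural protein of lipoproteins, was called lower (log2 change -2.05 ± 0.56 (SE), adjusted p = 0.0237). Without day 25 replicate 1, 2 or 3, APOB had adjusted p-values of 0.0785, 0.0858 and 0.0784. Without day 16 replicate 2, where APOB was highest, its change was -1.06.

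Among 25 tested endoderm and liver regulators and enzymes, 11 were higher and 8 lower, with a median of 0.95. The higher genes were enzymes or carriers, among them FAH, FBP1, ASS1, HPD, AKR1D1, CPS1, ARG1, FABP1 and TAT, and the bile acid receptor NR1H4. CPS1, the first enzyme of the urea cycle, measured 0.148, 0.149 and 0.128 FPKM at day 16 and 5.26, 5.25 and 5.48 FPKM at day 25, and ARG1, its last, rose by 6.48 ± 0.94, or by 5.86 and 8.68 without day 16 replicates 1 and 2. FABP1, the fatty acid carrier of liver, measured 3.84, 4.08 and 1.22 FPKM at day 16 and 366, 397 and 372 FPKM at day 25. The tyrosine aminotransferase TAT had 0 counts in all day 16 libraries and 2.10, 3.19 and 2.24 FPKM at day 25, at least 194-fold higher when 3 counts over the day 16 group are taken as the floor. The 8 lower genes were transcription factors of endoderm, among them FOXA1, HNF4A, GATA6, NR5A2, GATA4, FOXA2 and SOX17. GATA6 measured 25.2, 33.1 and 27.4 FPKM at day 16 and 6.95, 8.83 and 8.55 FPKM at day 25, and FOXA1 fell by 2.51 on the log2 scale (adjusted p = 0.00324). The ages did not overlap in either gene. Leaving out day 25 replicate 2 lowered the count of higher members from 11 to 7, and leaving out day 25 replicate 3 lowered that of lower members from 8 to 5.

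Genes of differentiating neurons rose steeply. Of 26 tested genes of differentiating neurons, 21 were higher and 1 lower, with a median log2 change of 3.34, and 19 of the 21 were called whichever library was left out. The neurofilament subunits NEFL and NEFM, which form the axon skeleton, both rose. NEFM measured 5.22, 2.20 and 3.73 FPKM at day 16 and 138, 129.9 and 141 FPKM at day 25, a log2 change of 5.08 ± 0.31 (SE), adjusted p = 1.6e-04, and NEFL rose by 4.85 ± 0.39. The RNA-binding protein ELAVL3, an early marker of neurons that have left the cell cycle, measured 0.302, 0.143 and 0.543 FPKM at day 16 and 17.6, 16.1 and 17.5 FPKM at day 25. STMN2, a microtubule regulator of growing axons, was already at 27.1, 9.24 and 63.5 FPKM at day 16 and reached 219, 222 and 233 at day 25, with its highest day 16 value in replicate 3.

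Several genes of defined neuron classes were close to 0 at day 16. ISL2, of motor neurons, measured 0.268, 0.325 and 0.524 FPKM at day 16 and 6.25, 7.22 and 6.07 FPKM at day 25, and ROBO3, the guidance receptor of commissural axons, 0.0507, 0.338 and 0.522 FPKM at day 16 and 13.01, 11.96 and 11.4 FPKM at day 25. LHX3, a factor of motor neurons and pituitary, had 3 counts in the day 16 group and 1084 in the day 25 group, a ratio of 414 (95% counting interval 141 to 2012). ATOH1 and FEZF2, of dorsal neural tube and forebrain, had 0 counts at day 16, and they were at least 63.1-fold and at least 99.4-fold higher at day 25 against the floor of 3 counts over the group.

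Of 24 tested neural progenitor genes, 8 were higher and 0 lower (median 1.24). Without a day 25 library or without day 16 replicate 1 the count was 5. FABP7, of radial glia, rose by 3.38 ± 0.43 (adjusted p = 0.00144). SOX2, the general progenitor factor, measured 15.05, 2.46 and 28.9 FPKM at day 16 and 31.2, 33.4 and 29.9 FPKM at day 25, and PAX6 measured 3.55, 0.318 and 15.6 FPKM at day 16 and 15.1, 13.2 and 15.1 FPKM at day 25. For both, day 16 replicate 2 was low. Day 16 replicate 3 came close to the day 25 values for SOX2, without overlap, and reached them for PAX6. Neither gene passed the test (adjusted p = 0.251 for SOX2 and 0.362 for PAX6).

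Of 25 neural crest and glia genes, 9 were higher and 2 lower (median 1.06), and 4, 4 and 3 stayed higher without day 25 replicates 1, 2 and 3. PRRX1, of facial and limb mesenchyme, measured 4.70, 1.82 and 4.19 FPKM at day 16 and 20.3, 18.3 and 17.0 FPKM at day 25. ERBB3, the neuregulin receptor of crest cells, fell by 1.57 on the log2 scale (adjusted p = 0.00617), with all day 16 libraries above all day 25 libraries.

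Skeletal muscle and heart share many contractile genes, and most called genes rose in the list of the former and fell in that of the latter. Of 28 tested somite and skeletal muscle genes, 13 were higher and 4 lower (median 1.73), and 11 of the 13 were called whichever library was left out. MYOG, the factor that starts terminal muscle differentiation, had 0 counts in all 3 day 16 libraries and 14.1, 16.2 and 13.5 FPKM at day 25, at least 388-fold higher against the floor of 3 counts over the group. MYOD1, which commits cells to muscle, had 3 counts at day 16 and 281 at day 25, a ratio of 107 (95% counting interval 36.4 to 524). MYH3, the embryonic myosin heavy chain, measured 0.224, 0.168 and 0.385 FPKM at day 16 and 39.0, 36.6 and 38.8 FPKM at day 25, a log2 change of 7.09 ± 0.26 (SE), adjusted p = 5.0e-05.

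The fast light chain MYLPF measured 1.12, 0.416 and 2.09 FPKM at day 16 and 111, 112 and 110.3 FPKM at day 25, and the fast troponin C TNNC2 measured 1.30, 1.95 and 1.91 FPKM at day 16 and 32.8, 37.6 and 36.0 FPKM at day 25. Factors of the undivided somite did not pass the test: TCF15 stood at 11.1, 4.52 and 19.5 FPKM at day 16 and 12.3, 12.3 and 12.4 FPKM at day 25 and MEOX1 at 14.1, 2.49 and 29.7 FPKM at day 16 and 18.3, 17.9 and 17.8 FPKM at day 25, with day 16 replicate 2 lowest for both. The 4 lower members (ACTA1, SIX4, MYL4 and DES) include genes that the early heart also expresses, and none of the 4 was called without a day 25 library. Under upper-quartile scaling 1 of the 4 was called.

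Of 26 tested heart genes, 17 were lower and 3 higher at day 25, with a median log2 change of -1.44, and 13 of the 17 were called whichever library was left out. The homeobox factor NKX2-5, which specifies heart cells (chromosome 16, 4945135 to 4947613), measured 23.9, 16.3 and 36.8 FPKM at day 16 and 1.48, 2.40 and 3.29 FPKM at day 25. All day 16 libraries exceeded all day 25 libraries, and the log2 change was -3.51 ± 0.37 (SE), adjusted p = 7.7e-04. Its paralog NKX2-6 measured 6.96, 4.46 and 12.8 FPKM at day 16 and 0, 0 and 0.0949 FPKM at day 25, and its only day 25 counts were 4 in replicate 3. HAND1 fell by 3.09, TBX20 by 3.35 and the pacemaker channel HCN4 by 3.43 on the log2 scale, with adjusted p-values of 0.00227, 0.00118 and 2.3e-04.

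Contractile and calcium-handling genes of the heart list moved both ways. PLN (phospholamban) measured 14.1, 14.9 and 49.9 FPKM at day 16 and 3.09, 3.90 and 4.32 FPKM at day 25, and the slow myosin light chain MYL3 fell by 1.10 on the log2 scale (adjusted p = 0.00809). TNNC1, the slow troponin C of heart, measured 134, 94.3 and 280.5 FPKM at day 16 and 144, 170.1 and 146 FPKM at day 25 and overlapped between the ages. The ventricular light chain MYL2 went the other way, with 7.35, 41.8 and 155 FPKM at day 16 and 403, 423 and 388 FPKM at day 25. Its log2 change of 2.53 ± 0.86 had an adjusted p of 0.0499, and without day 25 replicate 1, 2 or 3 or day 16 replicate 2 this was 0.105, 0.119, 0.105 and 0.109. Without day 16 replicate 3, the highest of its age, the log2 change was 3.74.

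**Figure D2:**
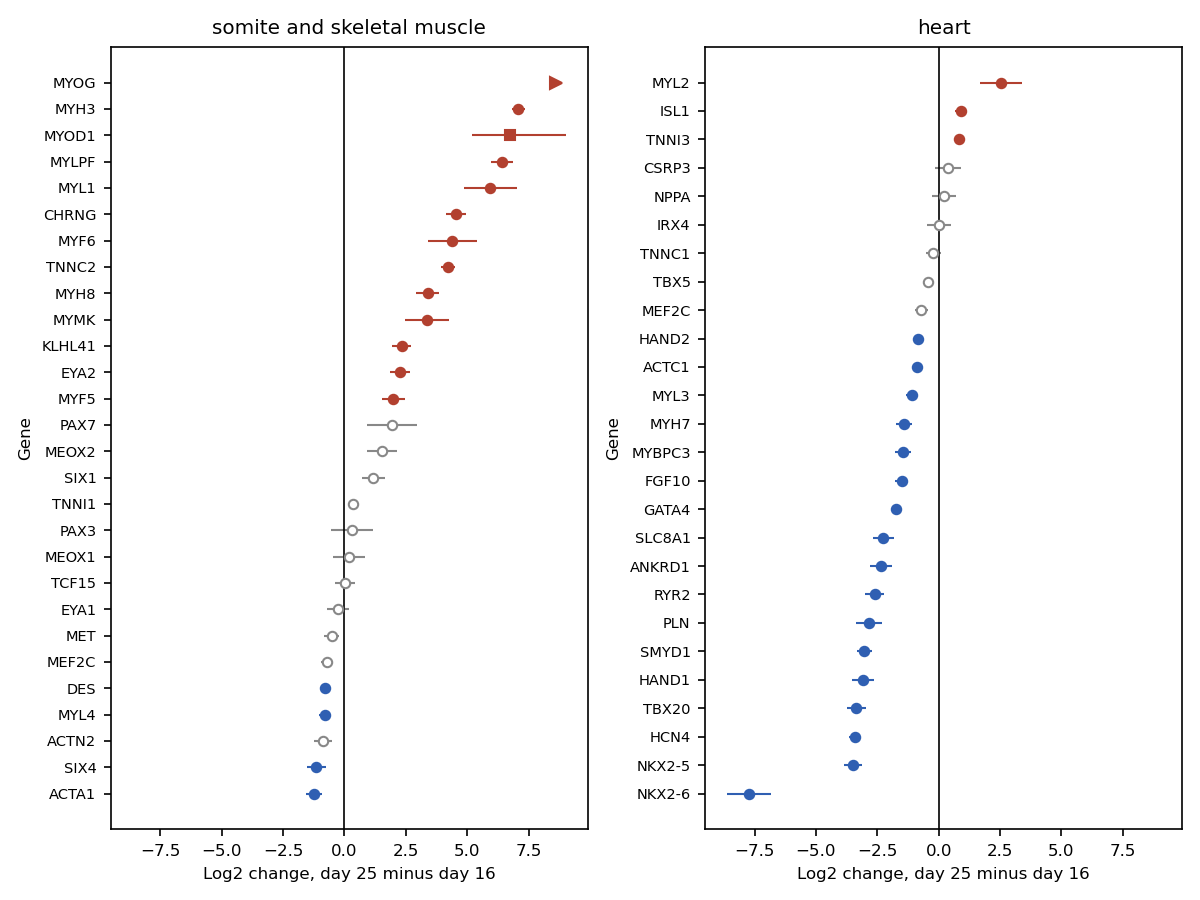
Log2 change from day 16 to day 25 in Hulunbuir embryos for every tested gene of the somite and skeletal muscle list and of the heart list, with bars of 1 SE. Filled points passed the test and open points did not. Genes at 0 in 1 group are drawn as a triangle at their lower bound, and MYOD1, with 3 counts at day 16, as a square at its count ratio with the counting interval. The muscle list reaches from MYOG and MYH3 on the right to ACTA1 on the left, and the heart list is mostly left of 0, with MYL2 as its highest member.

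Of 20 tested genes of sclerotome, cartilage and bone, 11 were higher and 3 lower (median 1.51), and 9 of the 11 were called whichever library was left out. MATN1, a matrilin of cartilage matrix, had 0 counts at day 16 and 25.3, 28.0 and 27.6 FPKM at day 25, at least 1837-fold higher against the floor of 3 counts over the group. COL9A3, a chain of type IX collagen, measured 1.93, 1.31 and 2.70 FPKM at day 16 and 21.1, 20.8 and 21.8 FPKM at day 25, and the tendon gene TNMD was at least 413-fold higher against the same floor. COL2A1, the main cartilage collagen, was already high, at 419.8, 200.1 and 325 FPKM at day 16 and 241, 238 and 239 FPKM at day 25, and did not pass the test (adjusted p = 0.125). HAPLN1, the link protein of hyaluronan and versican, went down, with 106, 36.9 and 82.1 FPKM at day 16 and 7.82, 7.58 and 6.69 FPKM at day 25.

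Among 30 matrix and mesenchyme genes, 8 were higher and 11 lower, with a median of -0.88, or 0.11 without day 16 replicate 2. VCAN (versican) measured 105, 96.7 and 166 FPKM at day 16 and 46.2, 41.9 and 45.6 FPKM at day 25, with a log2 change of -1.56 ± 0.18 (SE), adjusted p = 0.00103, and TNC (tenascin C) fell by 1.11 (adjusted p = 9.3e-04). FN1 (fibronectin) measured 524, 2097 and 413 FPKM at day 16 and 89.6, 83.7 and 88.9 FPKM at day 25. Day 16 replicate 2 lay far above the other day 16 libraries, and the log2 change of -3.76 ± 0.73 became -2.48 without it. COL3A1 stood at 1205, 5514 and 1535 FPKM at day 16 and 1272, 1241 and 1273 FPKM at day 25. Day 16 replicate 2 lay far above day 25, replicate 3 somewhat above it and replicate 1 below it. The change of COL3A1 did not pass the test (adjusted p = 0.122).

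Among the higher genes, FAP, a protease of mesenchymal cells, measured 0, 0.0655 and 0.0620 FPKM at day 16 and 20.1, 18.2 and 19.1 FPKM at day 25, and MGP, the matrix Gla protein that limits mineralisation, 0.343, 1.04 and 0.514 FPKM at day 16 and 21.5, 16.4 and 20.9 FPKM at day 25. OGN (osteoglycin) had 3 counts at day 16 and 2992 at day 25, a ratio of 1143 (95% counting interval 391 to 5547). TWIST2, a factor of dermal mesenchyme, rose by 2.85 ± 0.30 (adjusted p = 8.1e-04). Of 22 limb bud genes, 6 were higher and 3 lower (median 0.23), and each day 25 library left out lowered the higher count to 3. The share called was 40.9%, against 40.8% over all genes. TBX15, of limb and skin mesenchyme, had 0 counts at day 16 and 6.43, 7.28 and 8.54 FPKM at day 25. SALL4 fell by 3.32 and FGF10, the signal for limb outgrowth, by 1.51 on the log2 scale.

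Most endothelial genes fell. Of 30 tested, 19 were lower and 4 higher (median -1.22). Of the 19, 14 were called whichever library was left out, while the 4 became 1, 2 and 2 without day 25 replicates 1, 2 and 3. The receptors for vascular endothelial growth factor were all lower: KDR measured 107, 115 and 78.3 FPKM at day 16 and 10.4, 9.86 and 10.4 FPKM at day 25, with a log2 change of -3.45 ± 0.25 (SE), adjusted p = 2.3e-04, FLT1 measured 15.8, 19.96 and 18.96 FPKM at day 16 and 1.20, 1.25 and 1.31 FPKM at day 25, and FLT4 fell by 2.12. The scavenger receptor STAB2, of sinusoidal endothelium, measured 9.07, 12.8 and 13.5 FPKM at day 16 and 1.04, 0.914 and 0.941 FPKM at day 25. Junction genes also fell, with CDH5 (VE-cadherin) from 39.3 ± 3.04 to 14.9 ± 0.625 FPKM and PECAM1 from 36.6 ± 8.27 to 11.6 ± 0.153 FPKM. FLI1 and ERG, transcription factors of endothelium, stood close between the ages. FLI1 went from 18.8 ± 1.39 to 17.6 ± 0.423 FPKM and ERG from 5.64 ± 1.71 to 5.98 ± 1.69 FPKM, and neither passed the test (adjusted p = 0.299 and 0.948).

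Epithelial genes fell. Of 21 tested genes of epidermis and surface ectoderm, 16 were lower and 0 higher (median -2.50), and 14 of the 16 were called whichever library was left out. KRT8, the keratin of simple epithelia, measured 4247, 3153 and 1319.7 FPKM at day 16 and 253, 279.8 and 261 FPKM at day 25, and its partner KRT18 1125, 479 and 299 FPKM at day 16 and 74.1, 80.9 and 80.3 FPKM at day 25. All day 16 libraries exceeded all day 25 libraries for both, with adjusted p-values of 0.00166 and 0.00334. DSG2, a desmosome cadherin, measured 70.9, 69.4 and 65.2 FPKM at day 16 and 5.69, 6.19 and 5.12 FPKM at day 25, a log2 change of -3.74 ± 0.18 (SE), adjusted p = 1.1e-04. EPCAM measured 269, 114 and 107 FPKM at day 16 and 26.4, 23.9 and 27.9 FPKM at day 25 and CDH1 (E-cadherin) fell by 2.19 on the log2 scale. Keratins have near-identical copies in the genome, so reads of KRT8 and KRT18 could be split between copies.

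KRT8 and KRT18 are also expressed by trophoblast. Of 21 tested trophoblast and placenta genes, 12 were lower and 2 higher (median -1.79). The summed level of the list was 4271 to 7786 FPKM at day 16 and 1004 to 1045 FPKM at day 25. Both keratins are members of this list and lie among the 12. KRT8 alone gave 4247, 3153 and 1319.7 FPKM of the day 16 sums of 7786, 5670 and 4271 FPKM, so the sum is not separate from the epithelial falls above. ELF5, a defining factor of trophoblast, was low at both ages, at 1.58, 0.922 and 0.907 FPKM at day 16 and 0.922, 1.23 and 1.43 FPKM at day 25, and of the pregnancy-associated glycoproteins PAG6 was at 0 and PAG4 at most 0.377 FPKM in all 6 libraries. The part of trophoblast cells in the falls of epithelial genes was not tested. S100G, the calcium-binding protein calbindin D9k, was an exception, with 3.13, 13.5 and 2.90 FPKM at day 16 and 144, 120.1 and 117 FPKM at day 25. The log2 change was 4.07 ± 0.69, and 5.33 without day 16 replicate 2, the highest of its age.

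LIN28A, which blocks maturation of the let-7 microRNA (chromosome 2, 239577200 to 239590412), measured 474, 156 and 413 FPKM at day 16 and 2.86, 3.27 and 3.60 FPKM at day 25. All day 25 libraries were below 4 FPKM and all day 16 libraries above 150 FPKM, and the log2 change of -6.83 ± 0.43 (SE), adjusted p = 1.6e-04 was among the largest falls. NR6A1, an orphan nuclear receptor linked to vertebral number in pigs, measured 31.9, 19.5 and 42.4 FPKM at day 16 and 1.16, 0.470 and 0.926 FPKM at day 25, and PRTG (protogenin), an axis elongation gene, 19.2, 23.1 and 51.4 FPKM at day 16 and 1.42, 1.19 and 1.04 FPKM at day 25. LIN28B fell by 2.74 and the let-7 target HMGA1 by 1.42 on the log2 scale. In all, 10 of 16 tested genes of the list of LIN28 and let-7 regulated timing were lower, 1 higher, and 9 of the 10 were called whichever library was left out.

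The pluripotency list held 12 tested genes, of which 5 were lower and 0 higher. SALL4 measured 43.3, 11.9 and 32.6 FPKM at day 16 and 3.34, 2.84 and 3.23 FPKM at day 25 and ZFP42 (REX1) 16.2, 11.9 and 9.37 FPKM at day 16 and 3.47, 3.01 and 2.09 FPKM at day 25. POU5F1, the core pluripotency factor, measured 13.2, 3.11 and 4.70 FPKM at day 16 and 0.483, 1.57 and 1.19 FPKM at day 25. Its log2 change was -2.82 ± 0.67 (SE), adjusted p = 0.0149, and its adjusted p was 0.0541 without day 25 replicate 3. It became -1.95 on the log2 scale without day 16 replicate 1, the highest library. NANOG stood under 1 FPKM in all 6 libraries and was not tested. The count of lower genes was 3 without day 25 replicate 3.

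In the streak and tail bud list, 22 genes were tested, of which 5 were higher and 4 lower (median -0.03). The share called was 40.9%, against 40.8% over all genes (19.9% higher and 20.9% lower), so the list as a whole did not stand out. The higher count was 3 without day 16 replicate 2 or any day 25 library. The lower count was 2 and 1 without day 25 replicates 1 and 3. TBXT (brachyury) measured 8.78, 2.32 and 4.51 FPKM at day 16 and 0.410, 0.158 and 0.202 FPKM at day 25, a log2 change of -4.40 ± 0.61 (SE), adjusted p = 0.00209, or -3.76 without day 16 replicate 1. CDX2, a posterior and trophoblast factor, measured 36.4, 12.8 and 2.87 FPKM at day 16 and 0.790, 0 and 0.167 FPKM at day 25 and had an adjusted p of 0.0123, or 0.0556 without day 25 replicate 3. Its change ranged from -4.79 without day 16 replicate 1 to -7.70 without day 25 replicate 1. CDX4 had 10.9, 3.64 and 0.791 FPKM at day 16 and 0 counts at day 25, but too few libraries reached 1 FPKM for it to be tested. LFNG, of somite segmentation, measured 3.75, 3.52 and 4.80 FPKM at day 16 and 4.10, 4.16 and 4.77 FPKM at day 25, and FGF8, a tail bud signal, 2.30, 1.61 and 1.11 FPKM at day 16 and 1.55, 2.28 and 1.52 FPKM at day 25, both overlapping between the ages. GSC, an organizer gene that is used again in the branchial arches, measured 0.172, 0 and 0 FPKM at day 16 and 16.3, 18.8 and 13.5 FPKM at day 25, a log2 change of 7.70 ± 0.88 (SE), adjusted p = 0.00103. Its 8 day 16 counts were all in replicate 1.

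Of 20 tested HOX genes of paralog groups 1 to 8, 5 (HOXD3, HOXA4, HOXC4, HOXC5 and HOXA6) passed the test upward (median 0.44), and without day 16 replicates 2 and 3 the higher count was 8 and 10. HOXA4 measured 9.87, 7.90 and 14.2 FPKM at day 16 and 44.3, 38.5 and 40.6 FPKM at day 25 and HOXC5 7.28, 2.91 and 13.5 FPKM at day 16 and 43.1, 44.8 and 40.9 FPKM at day 25, and the groups did not overlap in either gene. The anterior gene HOXB1 measured 23.4, 3.11 and 22.5 FPKM at day 16 and 5.69, 5.37 and 5.21 FPKM at day 25 and did not pass (adjusted p = 0.0610). Without day 16 replicate 2, the lowest of its age, HOXB1 was called lower, with a log2 change of -2.13 (adjusted p = 2.1e-04). Of 9 genes of groups 9 to 13 (median 1.11), HOXD10 rose (1.54, 0.952 and 0.808 FPKM at day 16 and 7.92, 8.54 and 7.67 FPKM at day 25). HOXA9 measured 7.52, 14.4 and 5.58 FPKM at day 16 and 23.5, 22.5 and 21.9 FPKM at day 25 (adjusted p = 0.0662) and HOXC9 9.41, 6.05 and 1.36 FPKM at day 16 and 20.3, 25.2 and 21.1 FPKM at day 25 (adjusted p = 0.0566), both without overlap and without passing the test. HOXA9 was called higher without day 16 replicate 2 (by 1.72) and HOXC9 without day 16 replicate 1 or 3 (by 2.34 and 1.29). HOXB9 measured 39.4, 30.2 and 24.4 FPKM at day 16 and 37.1, 37.2 and 38.5 FPKM at day 25 and overlapped between the ages.

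**Figure D3:**
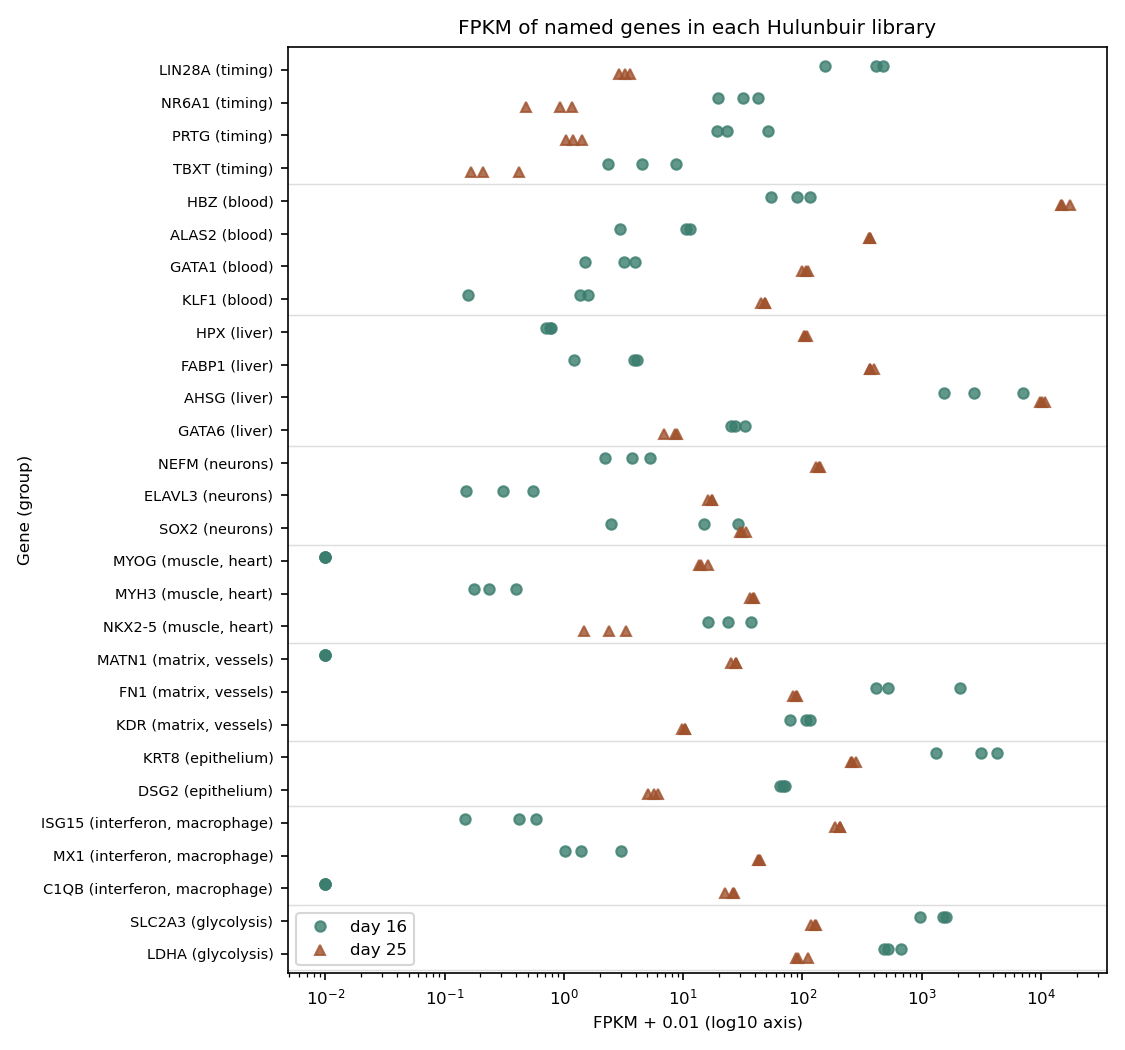
FPKM of 28 named genes in each of the 6 Hulunbuir libraries on a log10 scale of FPKM + 0.01, day 16 as circles and day 25 as triangles, so that points at the left edge are 0 counts. Genes are grouped by tissue or process. LIN28A falls from 156 to 474 FPKM at day 16 to 2.86 to 3.60 at day 25, and HBZ rises from 54.8 to 117 FPKM to 14622 to 17457 FPKM.

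Glycolysis genes fell. Of 26 tested genes of glycolysis and lactate handling, 21 were lower and 0 higher (median -1.54), and 20 of the 21 were called whichever library was left out. The glucose transporter SLC2A3 measured 1507, 974 and 1587 FPKM at day 16 and 129.8, 119 and 128 FPKM at day 25, a log2 change of -3.54 ± 0.20 (SE), adjusted p = 1.4e-04. HK2, the first enzyme of glycolysis, measured 45.6, 21.5 and 51.1 FPKM at day 16 and 6.35, 5.93 and 5.32 FPKM at day 25, and LDHA, which turns pyruvate to lactate, 519, 671 and 482 FPKM at day 16 and 89.2, 111 and 91.9 FPKM at day 25. The lactate exporter SLC16A3 (MCT4) measured 119.6, 93.3 and 67.7 FPKM at day 16 and 5.60, 7.05 and 7.36 FPKM at day 25. PDK1, which holds pyruvate back from mitochondria, fell by 2.33 on the log2 scale. The groups did not overlap in any of these 5 genes. The isoforms HK1 and LDHB stood closer together, with LDHB at 1232, 903 and 806 FPKM at day 16 and 797, 843 and 824 FPKM at day 25 (adjusted p = 0.177) and HK1 at 87.7, 52.1 and 59.2 FPKM at day 16 and 55.3, 52.6 and 53.9 FPKM at day 25 (adjusted p = 0.142). Without day 16 replicate 3 both were called lower, with log2 changes of -0.61 for LDHB and -0.59 for HK1.

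Of 34 tested nuclear genes of the respiratory chain, 19 were higher and 1 lower (median 0.60). The count of higher genes was 12, 9 and 9 without day 25 replicates 1, 2 and 3. NDUFA2, a subunit of complex I, measured 159, 105 and 125 FPKM at day 16 and 376, 419.6 and 379 FPKM at day 25, a log2 change of 1.46 ± 0.17 (SE), adjusted p = 0.00119. SDHA and UQCRC1 overlapped between the ages, with changes of -0.12 and 0.01.

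Of the 13 mRNAs of the mitochondrial genome, 4 were lower (ND1, ND2, ND5 and ND6) and 0 higher, with a median of -0.58. ND5 measured 3444, 4003 and 3529.8 FPKM at day 16 and 1050.1, 823 and 1110.4 FPKM at day 25, a log2 change of -2.03 ± 0.22 (SE), adjusted p = 9.1e-04, and ND2 1729, 1864 and 1982 FPKM at day 16 and 804, 784 and 791 FPKM at day 25. COX1, on the same heavy-strand transcript, measured 663, 2822 and 1441 FPKM at day 16 and 4225, 3716 and 4122 FPKM at day 25 and did not pass the test (adjusted p = 0.124). Its groups did not overlap, and without day 16 replicate 2 COX1 was called higher, by 1.92 on the log2 scale (adjusted p = 0.0034). Leaving out day 16 replicate 3 raised the count of lower genes to 8. Mitochondrial counts made up 3.30%, 4.59% and 3.38% of all counts at day 16 and 3.17%, 2.73% and 3.13% at day 25. ND5 and ND6 overlap by their ends on opposite strands, and the sources used here do not say whether strand was counted.

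Of 56 ribosomal protein genes, 39 were higher and 0 lower, with a median log2 change of 0.62. RPL35 measured 1259, 1274 and 1408 FPKM at day 16 and 3205, 3402 and 3246 FPKM at day 25, a log2 change of 1.19 ± 0.14 (SE), adjusted p = 0.00113. RPS2 measured 5113, 3332 and 4357 FPKM at day 16 and 4636, 4941 and 4673 FPKM at day 25 and RPL3 2150.2, 1889.7 and 2379 FPKM at day 16 and 2329, 2346 and 2319 FPKM at day 25, both without a change that passed. The count of 39 was 23, 19 and 22 without day 25 replicates 1, 2 and 3. Ribosomal protein genes have many processed copies, between which reads could be split. Of 37 cell cycle genes, 4 were higher and 4 lower, with a median of -0.08, and PCNA and CDK1 stood at changes of 0.28 and 0.06. The higher 4 were AURKB, a kinase of chromosome segregation (0.54 ± 0.13), the D-type cyclin CCND3 (0.65 ± 0.20), and CDKN1B and CDKN2C, inhibitors that hold cells before DNA synthesis. AURKB and CCND3 each lost the call when any day 25 library was left out. CDKN2C measured 0.170, 0.791 and 0.772 FPKM at day 16 and 13.1, 15.6 and 12.8 FPKM at day 25. The lower count was 14 without day 16 replicate 2 and 2 without day 25 replicate 2. The higher count was 7 without day 16 replicate 3 and 2 without any day 25 library, and under upper-quartile scaling it was 7.

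Genes of the interferon response rose. Of 22 tested, 18 were higher and 0 lower (median 2.97), and 13 of the 18 were called whichever library was left out. ISG15, the ubiquitin-like protein made after interferon (chromosome 12, 49537787 to 49538733), measured 0.571, 0.414 and 0.138 FPKM at day 16 and 187, 208 and 205 FPKM at day 25, a log2 change of 8.81 ± 0.40 (SE), adjusted p = 1.0e-04. IFI6 measured 0.293, 0.612 and 0.222 FPKM at day 16 and 177, 200.1 and 171 FPKM at day 25 and the antiviral GTPase MX1 3.00, 1.02 and 1.38 FPKM at day 16 and 44.0, 42.8 and 43.7 FPKM at day 25. CXCL10, an interferon-induced chemokine, had 0 counts at day 16 and 22.8, 15.6 and 13.8 FPKM at day 25 (at least 248-fold higher against the floor). STAT2, which carries the interferon signal to the nucleus, stood at 7.16, 8.26 and 9.60 FPKM at day 16 and 8.23, 9.68 and 9.79 FPKM at day 25 and IFIT5 at 21.3, 14.2 and 32.2 FPKM at day 16 and 30.6, 32.0 and 34.7 FPKM at day 25, and neither passed.

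Of 19 tested leukocyte genes, 8 were higher and 1 lower (median 1.27), and their summed level was 71.7 to 108 FPKM at day 16 and 176 to 181 FPKM at day 25. C1QB, a complement subunit of tissue macrophages, had 0 counts at day 16 and 26.1, 26.7 and 22.3 FPKM at day 25, and CSF1R, the growth factor receptor of the lineage, measured 0.158, 0.218 and 0.219 FPKM at day 16 and 3.22, 2.89 and 2.80 FPKM at day 25. The pan-leukocyte gene PTPRC was at most 0.267 FPKM in all 6 libraries, and CD3E, of T cells, measured 0.303, 1.52 and 2.19 FPKM at day 16 and 0.971, 1.495 and 1.32 FPKM at day 25. The part of leukocytes in the rise of interferon genes was not tested. Of 11 platelet genes 5 were higher and 1 lower, with TUBB1, the tubulin of megakaryocytes, at 0.667, 1.39 and 2.22 FPKM at day 16 and 6.92, 5.98 and 8.02 FPKM at day 25.

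In the BMP, nodal and TGF-beta list 13 of 33 genes were lower and 2 higher (median -0.97), and 9 of the 13 were called whichever library was left out. The ligand BMP2 measured 13.5, 17.5 and 11.9 FPKM at day 16 and 1.78, 2.75 and 1.59 FPKM at day 25 and TGFB2 23.5, 14.7 and 36.7 FPKM at day 16 and 4.98, 3.79 and 3.80 FPKM at day 25. The receptors TGFBR1 and TGFBR3 fell by 2.11 and 2.54 on the log2 scale, with adjusted p-values of 8.1e-04 and 1.6e-04. BMP4 measured 26.8, 24.5 and 22.5 FPKM at day 16 and 18.3, 20.3 and 20.4 FPKM at day 25 (adjusted p = 0.0540), and ID1, a target of the pathway, 203, 74.0 and 184 FPKM at day 16 and 210.4, 222 and 216 FPKM at day 25.

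In the hedgehog and Notch list 11 of 27 genes were lower and 6 higher (median -0.59), and the lower count was 7 without day 25 replicate 2 or 3. Of the ligands, IHH measured 33.0, 24.9 and 6.52 FPKM at day 16 and 1.22, 2.61 and 0.978 FPKM at day 25. The hedgehog receptor and target PTCH1 measured 18.2, 11.6 and 26.2 FPKM at day 16 and 3.91, 3.70 and 3.80 FPKM at day 25, and HHIP, which binds the ligand, fell by 1.65. The receptor NOTCH2 fell by 2.34 and its endothelial ligand DLL4 by 2.22. The targets of Notch signalling in the list that were called went up, with HES5 at 2.52, 0 and 10.1 FPKM at day 16 and 65.6, 62.5 and 66.3 FPKM at day 25 (log2 change 3.93 ± 1.11 (SE), adjusted p = 0.0279), HEYL rising by 1.81 ± 0.54 and the feedback inhibitor NRARP by 2.18 ± 0.50. The targets HES1, HEY1 and HEY2 did not pass, with changes of 0.18, -0.77 and -0.59, though HEY1 and HEY2 were called lower without day 16 replicate 2 (-1.01 and -0.67). The other higher members were the ligand DLL3 (by 1.76 ± 0.51), DNER (by 0.83 ± 0.27) and DLK1, a non-canonical ligand made by many fetal tissues, with 15.6, 16.6 and 36.1 FPKM at day 16 and 118, 122 and 122 FPKM at day 25. The higher count was 2, 1 and 2 without day 25 replicates 1, 2 and 3 and 3 without day 16 replicate 1, and DLK1 was called in each of the 6 cases. HES5, HEYL, DLL3 and DNER each lost the call when any day 25 library was left out, and NRARP without day 25 replicate 2. HES5, HEYL and DNER also lost it without day 16 replicate 1, and HEYL and DLL3 without day 16 replicate 2. With day 16 replicate 3 left out the change was 5.44 for HES5, 2.76 for HEYL and 2.79 for NRARP, and without day 16 replicate 1 it was 2.45 for DLL3.

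Of 44 Wnt pathway genes, 8 were higher and 10 lower (median 0.26). The share called was 40.9%, against 40.8% over all genes (19.9% higher and 20.9% lower), so the list as a whole did not stand out. Without day 25 replicates 1, 2 and 3 the higher count was 5, 4 and 4 and the lower 7, 6 and 6. Among receptors FZD4 measured 49.3, 40.4 and 47.6 FPKM at day 16 and 9.93, 9.47 and 10.5 FPKM at day 25, and the coreceptor LRP6 fell by 1.49. LGR5, the receptor for R-spondins, measured 0.945, 0.198 and 0.672 FPKM at day 16 and 7.81, 8.35 and 8.66 FPKM at day 25, and the ligand WNT7A 0.390, 0 and 0 FPKM at day 16 and 7.11, 4.89 and 4.58 FPKM at day 25. AXIN2, the feedback target used as a readout of the pathway, measured 8.28, 7.90 and 11.1 FPKM at day 16 and 12.8, 12.3 and 12.8 FPKM at day 25 and did not pass (adjusted p = 0.0755). Of 25 FGF pathway genes, 4 were higher and 6 lower (median -0.43). The share of FGF genes called, 40.0%, was also near that over all genes. The higher count was 1 when any day 25 library was left out and 2 without day 16 replicate 1. The lower count was 10 without day 16 replicate 2. FGF19, a ligand, measured 49.9, 52.8 and 14.1 FPKM at day 16 and 2.94, 3.09 and 2.87 FPKM at day 25. The target ETV5 fell by 2.05 on the log2 scale whereas its relative ETV4 rose by 0.92 ± 0.16.

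Of 18 tested retinoic acid genes, 5 were higher and 0 lower (median 0.30). The cellular binding proteins CRABP1 and CRABP2 measured 88.7, 27.7 and 176 FPKM at day 16 and 946, 1069 and 959 FPKM at day 25 for CRABP1 and 328, 95.3 and 353 FPKM at day 16 and 1214, 1294 and 1241 FPKM at day 25 for CRABP2. The receptor RXRG rose by 2.46 ± 0.21. The synthesising enzyme ALDH1A2 measured 34.7, 6.12 and 70.3 FPKM at day 16 and 21.8, 18.9 and 19.4 FPKM at day 25 and overlapped. CRABP1 changed by 3.30 ± 0.53 on the log2 scale and by 3.90 without day 16 replicate 3.

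Of 17 tested genes of the insulin-like growth factor system, 9 were lower and 1 higher (median -0.77). The count of 9 was 5 without day 25 replicate 1 or 2. IGF2R, the receptor that clears IGF2, measured 97.5, 180.1 and 109 FPKM at day 16 and 18.1, 17.6 and 18.8 FPKM at day 25, a log2 change of -2.99 ± 0.32 (SE), adjusted p = 8.4e-04. The protease PAPPA, which frees the factors from their carriers, measured 1.77, 2.15 and 4.29 FPKM at day 16 and 0.246, 0.118 and 0.230 FPKM at day 25, and its inhibitor STC2 6.32, 5.55 and 14.4 FPKM at day 16 and 0.768, 0.478 and 0.146 FPKM at day 25. IGFBP2, the most abundant carrier, measured 1336, 782 and 1030.4 FPKM at day 16 and 1105, 1244 and 1149 FPKM at day 25 and overlapped. Among 17 imprinted genes, 4 were higher and 5 lower, and the 4 higher were called whichever library was left out. NNAT (neuronatin) measured 148, 50.6 and 110.5 FPKM at day 16 and 942, 966 and 929 FPKM at day 25, GNAS rose by 0.86 ± 0.15, and MEST and PEG10 fell by 1.02 and 1.79. The lower count was 3 without day 25 replicate 1 or 2.

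In the gut, lung and pancreas list 6 of 19 genes were higher and 9 lower. The glucagon gene GCG had 0 counts at day 16 and 5.39, 5.97 and 5.91 FPKM at day 25, and the parathyroid hormone gene PTH 3.64, 3.00 and 2.83 FPKM. They were at least 590.4-fold and at least 50.8-fold higher against the floor of 3 counts over the group. Of 30 genes of mesonephros, kidney and gonad, 8 were higher and 6 lower. The median was -0.26, or 0.09 and 0.63 without day 16 replicates 2 and 3. The higher count was 4 without day 16 replicate 1, 13 without day 16 replicate 3 and 3, 2 and 3 without day 25 replicates 1, 2 and 3, and the lower count was 9 without day 16 replicate 3. The list member SIX2 measured 0.251, 0.266 and 0.838 FPKM at day 16 and 8.12, 7.65 and 8.28 FPKM at day 25. Which tissue its RNA came from was not tested. LRP2 (megalin), an endocytic receptor, measured 18.1, 40.0 and 14.4 FPKM at day 16 and 2.46, 1.97 and 2.11 FPKM at day 25. LRP2 changed by -3.67 ± 0.48, and by -2.96 without day 16 replicate 2.

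Of 33 immediate early and dissociation genes, which respond to handling of tissue, 6 were higher and 10 lower (median -0.21). Without day 16 replicate 2 the higher count was 11. Of the immediate early transcription factors, FOSL2 measured 21.98, 19.7 and 14.5 FPKM at day 16 and 2.76, 2.49 and 2.32 FPKM at day 25, FOSB fell by 1.77 and ATF3 by 1.46 on the log2 scale, and NR4A1 rose by 1.55 ± 0.16. FOS measured 26.9, 9.03 and 13.03 FPKM at day 16 and 13.9, 15.5 and 14.0 FPKM at day 25 and JUN 128, 58.1 and 133 FPKM at day 16 and 104, 100.2 and 104 FPKM at day 25, and neither passed the test. TRIB3, a pseudokinase of the stress response, measured 0.376, 0.501 and 0 FPKM at day 16 and 9.29, 10.1 and 9.92 FPKM at day 25, and the chaperone HSPA5 of the endoplasmic reticulum 699.6, 1012 and 591 FPKM at day 16 and 199.6, 185 and 196 FPKM at day 25. The part of tissue handling in other results was not tested.

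The day 16 libraries differed from each other in genes of particular tissues, and those named next were chosen after their values were seen. Day 16 replicate 1 was high in the streak gene FGF17 (31.3, 4.62 and 0.692 FPKM in replicates 1, 2 and 3) and in CLDN6 (336, 109.7 and 88.5 FPKM). Day 16 replicate 2 was high in genes of matrix, steroid synthesis and water transport, with COL6A1 at 11.9, 129.6 and 9.32 FPKM, CYP17A1 at 9.78, 102 and 6.01 FPKM and AQP1 at 10.8, 220.1 and 23.8 FPKM. Day 16 replicate 3 was high in the podocyte gene NPHS1, at 0.0884, 0 and 15.9 FPKM, and in WT1, at 1.86, 1.12 and 15.1 FPKM. The day 25 values of NPHS1 were 1.05, 1.14 and 1.24 FPKM, and it did not pass the test (adjusted p = 0.373). Without day 16 replicate 3, NPHS1 was called higher at day 25, by 4.37 on the log2 scale, and WT1 by 1.03. Without day 16 replicate 2, COL6A1 was called higher by 1.59, against -0.86 ± 0.99 with it (adjusted p = 0.512).

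**Figure D4:**
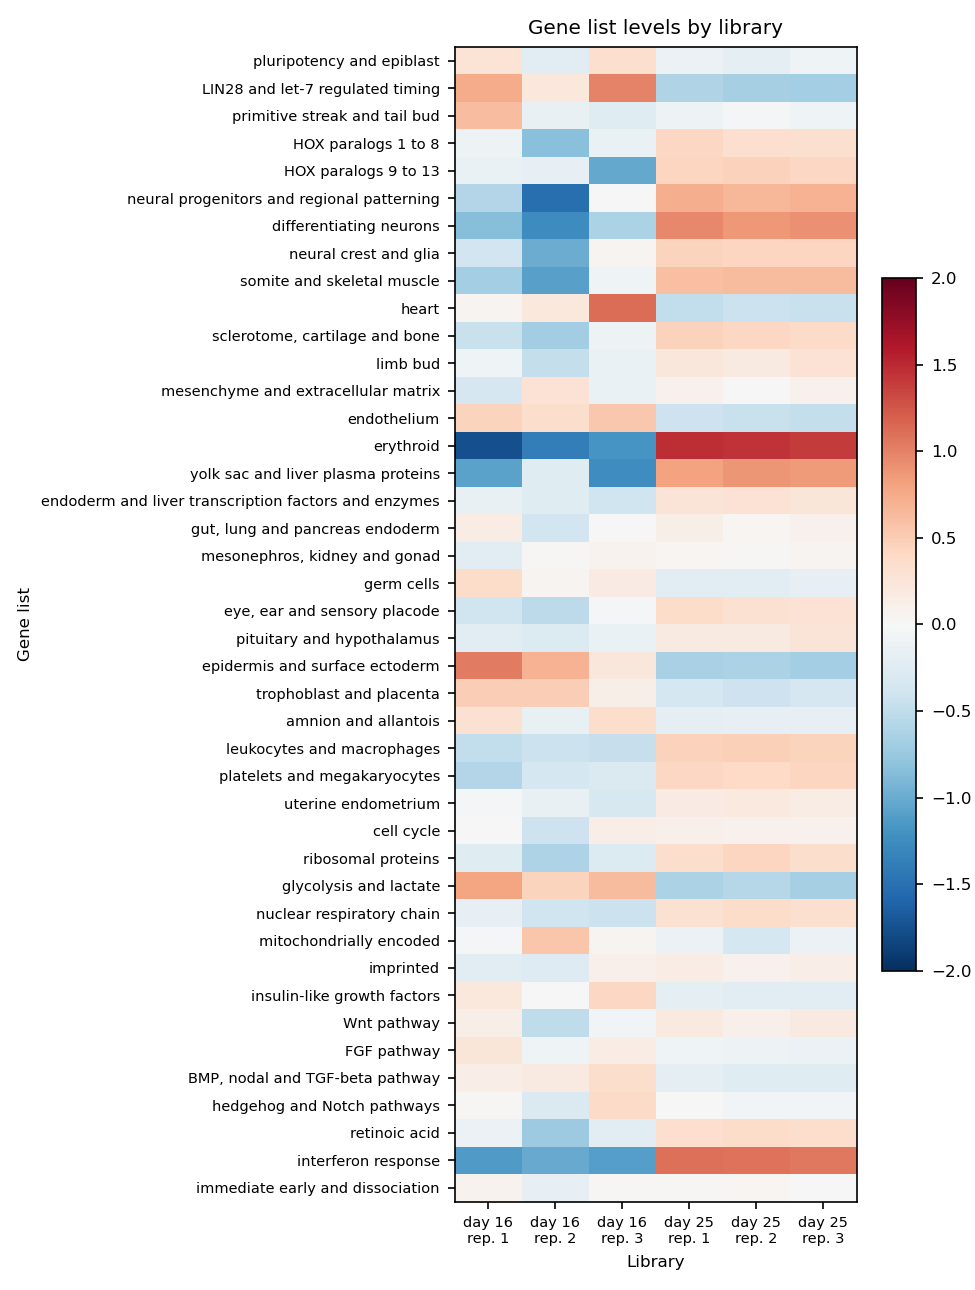
Mean log2(FPKM + 1) of each gene list in the 6 Hulunbuir libraries, drawn as the difference from the mean of the 6. Columns are libraries and rows are lists, on a colour scale of 2 log2 units on either side of 0. The 3 day 25 columns are alike, while day 16 replicate 2 is low in neural lists and high in matrix and plasma protein lists against its own group, and day 16 replicate 3 is high in the heart list.

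Whether the change with age was the same in Ujumqin embryos was tested as a breed by age interaction over all 12 libraries and 14595 genes. The difference passed the test for 2804 genes (19.2%), 1298 more positive (8.89%) and 1506 more negative (10.3%) in Hulunbuir. The count was 1561, 1656 and 1578 without Hulunbuir day 25 replicates 1, 2 and 3, 1618 and 1597 without Ujumqin day 25 replicates 2 and 3, and 2423 to 3337 without any other library. In the same fit 40.5% of genes changed with age in Hulunbuir and 63.6% in Ujumqin. Of the 2804, 991 moved in opposite directions in the breeds, and 178 were called in both breeds with opposite signs.

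In the erythroid list 31 of 37 were more positive in Hulunbuir and 0 more negative. HBZ measured 866, 706 and 3283 FPKM in Ujumqin at day 16 and 1725, 2233 and 2128 at day 25, beside the Hulunbuir values above. Hulunbuir lay lower at day 16 and higher at day 25 than Ujumqin, and the difference of the log2 changes was 6.79 ± 0.75 (adjusted p = 5.6e-04). KLF1 changed by 5.37 in Hulunbuir and -1.83 in Ujumqin, where it measured 10.4, 6.58 and 24.3 FPKM at day 16 and 2.37, 3.95 and 3.91 at day 25. Of 48 plasma protein genes 32 were more positive in Hulunbuir and 1 more negative. AHSG measured 12963, 13954 and 33166 FPKM in Ujumqin at day 16 and 3575, 2368 and 2183 at day 25, and the difference of the changes was 3.92 ± 0.77 (adjusted p = 0.00720). S100G, which rose in Hulunbuir, measured 108, 509 and 290.5 FPKM in Ujumqin at day 16 and 103, 70.5 and 85.1 at day 25.

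The ribosomal protein and mitochondrial lists were more negative in Hulunbuir: 33 of 56 and 9 of 13 genes, and 0 of either more positive. The median change of ribosomal protein genes was 0.59 in Hulunbuir and 1.42 in Ujumqin. ND2 fell in Hulunbuir, while in Ujumqin it measured 1583, 1037 and 816 FPKM at day 16 and 1201, 1548 and 2081 at day 25, and the difference was -2.02 ± 0.39 (adjusted p = 0.00616). SLC2A3 changed by -3.57 in Hulunbuir and -1.31 in Ujumqin, a difference of -2.26 ± 0.37 (adjusted p = 0.00305).

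Other large changes showed no difference between breeds that passed the test. LIN28A changed by -6.85 in Hulunbuir and -7.00 in Ujumqin, a difference of 0.14 ± 0.57 (adjusted p = 0.886). The difference was -0.27 ± 0.44 for NEFM (adjusted p = 0.700), -0.04 ± 0.31 for KDR (0.951) and -1.01 ± 0.65 for NKX2-5 (0.288). These standard errors leave room for differences in either direction, so no equality between breeds is shown.

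**Figure D5:**
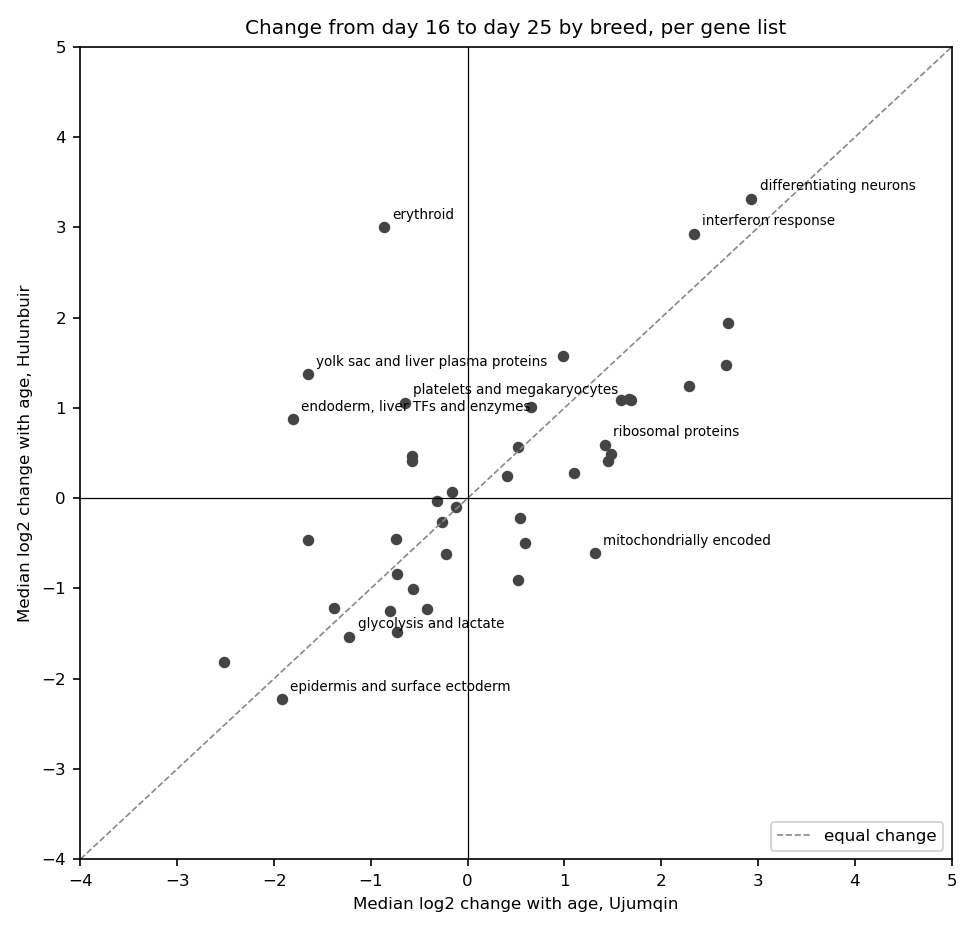
Median log2 change from day 16 to day 25 of each gene list in Ujumqin (horizontal axis) and Hulunbuir (vertical axis), from the fit over 12 libraries, with the line of equal change. The erythroid and liver lists lie in the upper left, higher at day 25 in Hulunbuir and lower in Ujumqin, and the ribosomal protein and mitochondrial lists lie below the line.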

How the data were processed

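RNA-seq of 12 whole-embryo libraries was deposited as 1 table of 26247 genes with, for each library, a count and an FPKM value. Per the submitters' processing notes the authors used cutadapt 1.9 and FastQC, and the build was Oar_v3.1. For the aligner and the counter, names and versions were not given in the sources used here. The deposited counts are whole numbers but estimated counts (expected counts): of 292 low values checked, 99.3% equalled the value implied by the deposited FPKM, rounded up. The deposited FPKM are scaled by the authors to gene length and library size, and 0.0001 stands for a count of 0. Of the symbols, 14418 came from the table and 1300 were added from RefSeq through gene numbers. No sample column was left unmapped (0).

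Genes with at least 1 FPKM in 3 or more of the 6 Hulunbuir libraries were tested with edgeR 4.0.16 in R 4.3.3 (TMM scaling, quasi-likelihood F-test, Benjamini-Hochberg adjusted p under 0.05). A breed by age interaction was fitted over 12 libraries with the same filter. Alternatives were DESeq2 1.42.0, limma 3.58.1 (voom with group weights, and trend on log2(FPKM + 1) or log2(FPKM + 0.1)), other scalings and filters, a replicate block and each library left out. The least count share detectable per library, 3 counts, was 0.0585 to 0.0920 CPM. Simulated counts held 100 genes changed 2-fold and 100 changed 4-fold of 13913, far fewer than the 40.8% called in the data. With 1 spread for both ages, 16% of genes changed 2-fold and 72% of those changed 4-fold were recovered, with 7 false calls among 95. With a spread set per age it was 5% and 72%, with 4 among 81. The interaction simulation, with as many changed genes, recovered 2% and 36% (1 false call among 39) with 1 spread, and 3% and 39% (11 among 53) with a spread per age. The Benjamini-Hochberg cut-off depends on the share of genes changed, so these recoveries do not give the share of changes missed in the data.

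The comparison, its gene lists (42 lists of 1244 symbols, 1058 in the table) and the tests were chosen with earlier results of these data known. A member of a list can pass the FPKM filter through the group where it is high, so counts over tested members describe and do not test the list. Named genes are the largest changes, those at 0 in 1 group, the most abundant and the smallest adjusted p, and per list up to 4 called genes in each direction and 3 others of highest FPKM. AFP, ALAS2, ALB, AXIN2, BCL11A, CD3E, CDH5, CDK1, CLDN6, COL6A1, COX1, DNER, ELF5, ERG, FABP7, FECH, FGF8, FOS, GATA1, HEY1, HEY2, HOXB1, ISL2, JUN, KLF1, LDHA, LFNG, MEOX1, MX1, MYL3, NEFL, NEFM, NPHS1, PAX6, PECAM1, PLN, RPL3, SDHA, STMN2, TCF15, TNC, TNNC2, UQCRC1, VCAN, VTN and WT1 were named outside these rules, after their values were seen. Some genes that the rules select are not reported here.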

Additional observations from a re-analysis of the deposited data

Results flagged for a closer look

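The change from day 16 to day 25 differed between Hulunbuir and Ujumqin embryos for 2804 of 14595 genes in the interaction test of edgeR over all 12 libraries (19.2%). The difference itself was tested, and each value below is the Hulunbuir log2 change minus the Ujumqin log2 change, with 3 libraries in each of the 4 groups.

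Of the genes already described, the difference was 6.79 ± 0.75 for HBZ, 7.19 ± 0.94 for KLF1, 3.92 ± 0.77 for AHSG, 5.72 ± 0.94 for S100G, -2.02 ± 0.39 for ND2 and -2.26 ± 0.37 for SLC2A3.

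Among the 8 genes with the smallest adjusted p-values in this test, BLVRB, the red cell reductase, changed by 4.61 in Hulunbuir and 0.32 in Ujumqin, a difference of 4.30 ± 0.31 (adjusted p = 1.4e-04). In Ujumqin it measured 62.6, 53.6 and 104 FPKM at day 16 and 74.0, 78.7 and 92.6 FPKM at day 25. ITGA7, the laminin receptor of muscle, differed by -3.15 ± 0.25 (adjusted p = 1.4e-04). FHL2, a LIM protein of heart and other tissues, differed by 2.72 ± 0.21 and the secreted glycoprotein gene CREG1 by 3.53 ± 0.28. The transporters SLC22A17, SLC39A8 (zinc and manganese) and SLC22A4 (ergothioneine) differed by -2.41 ± 0.16, 5.61 ± 0.50 and 5.78 ± 0.46. CARNS1, carnosine synthase, differed by 6.92 ± 0.60 (adjusted p = 2.3e-04). Each of the 8 was called whichever of the 12 libraries was left out. As they were chosen for the smallest adjusted p-values in these same libraries, this adds no separate support.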

How the results depend on the processing

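The count of 5675 changed genes ranged from 3031 to 6550 when a library was left out (1463 to 3225 higher, 1568 to 3438 lower), and from 4603 to 6607 under the other alternatives. Limma on log2(FPKM + 0.1) called 3377 higher and 1981 lower genes and on log2(FPKM + 1) 3500 and 2013, so that 63.0% and 63.5% of calls were higher, against 48.7% in the count fit and 54.8% under upper-quartile scaling; the median log2 change of all genes was 0.16, 0.13, -0.01 and 0.07 in these 4. The interaction count ranged from 1561 to 3337 without 1 library (723 to 1597 more positive, 768 to 1757 more negative), and was 3905 by DESeq2 and 2347 by voom. Replicate numbers are shared between the ages, but same-numbered libraries did not deviate together (Pearson r -0.10, 0.01 and 0.01 over genes), so they were not paired. A replicate block gave 4638 genes, and 2626 in the interaction, and not every library correlated best with its own number.

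Without 1 library, called genes ranged for pluripotency and epiblast lower 3 to 6, primitive streak and tail bud higher 3 to 6, primitive streak and tail bud lower 1 to 6, HOX paralogs 1 to 8 higher 5 to 10, neural progenitors and regional patterning higher 5 to 12, neural crest and glia higher 3 to 12, somite and skeletal muscle lower 0 to 5, limb bud higher 3 to 7, endothelium higher 1 to 6, endoderm and liver transcription factors and enzymes higher 7 to 13. They ranged for endoderm and liver transcription factors and enzymes lower 5 to 8, mesonephros, kidney and gonad higher 2 to 13, germ cells lower 2 to 5, eye, ear and sensory placode higher 3 to 10, cell cycle higher 2 to 7, cell cycle lower 2 to 14, ribosomal proteins higher 19 to 48, nuclear respiratory chain higher 9 to 21, mitochondrially encoded lower 3 to 8, imprinted lower 3 to 5. They also ranged for insulin-like growth factors lower 5 to 11, Wnt pathway higher 4 to 12, Wnt pathway lower 6 to 13, FGF pathway higher 1 to 4, FGF pathway lower 5 to 10, hedgehog and Notch pathways higher 1 to 6, hedgehog and Notch pathways lower 7 to 14, immediate early and dissociation higher 4 to 11. Under upper-quartile scaling 1 muscle gene was lower and 7 cell cycle genes higher. List medians changed sign without day 16 replicate 2 for matrix (-0.92 to 0.11 over libraries left out) and without day 16 replicate 2 or 3 for kidney (-0.40 to 0.63). The cause was not tested.

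For 200 named genes, 3056 of 3172 recomputed values kept their side of the threshold and, where called, their direction, 51 lost the call and 62 gained it. Of the genes called under neither setting, 21 changed sign in some alternative. The 3 that turned were COL6A1 without day 16 replicate 2 (-1.41 to 1.59 over libraries left out), and NPHS1 (-2.75 to 4.37) and WT1 (-1.21 to 1.03) without day 16 replicate 3. Of the 18 genes named for the interaction, 270 of 270 values kept their side, 0 lost it and 0 gained it. Depth limits the genes close to 0 counts at day 16, for which bounds or ratios with counting intervals, covering counting error only, replace the fitted change.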

Other observations

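Of 8 tested germ cell genes, 5 were lower and 0 higher at day 25, and 3, 3 and 2 were lower without day 25 replicates 1, 2 and 3. KIT, the stem cell factor receptor, measured 10.9, 8.73 and 11.0 FPKM at day 16 and 1.04, 1.06 and 1.64 FPKM at day 25, and PRDM1, which specifies primordial germ cells and acts in other tissues, 9.61, 4.20 and 9.63 FPKM at day 16 and 1.83, 2.06 and 1.47 FPKM at day 25. Of 17 amnion and allantois genes, 6 were lower and 1 higher. Of 21 genes of eye, ear and placodes, 5 were higher and 2 lower, with 3 higher without any day 25 library and 10 without day 16 replicate 3. Of 7 pituitary and hypothalamus genes, 3 were higher and 0 lower. Of 12 genes named for the uterine endometrium, 4 were higher and 2 lower, and their summed level was 328 to 550 FPKM at day 16 and 274 to 279 FPKM at day 25, led by CTSB, WFDC2, SPP1 and IGFBP1, which other tissues also express.

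APOD, a lipocalin of connective tissue and glia, was among the smallest adjusted p-values, with 0.258, 0.345 and 0.519 FPKM at day 16 and 49.4, 51.8 and 48.0 FPKM at day 25 and a log2 change of 6.90 ± 0.25 (SE), adjusted p = 5.0e-05.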
